A study of Mus musculus with 2 samples.

Results

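The intergenic peaks of ATF4 lying 10 to 100 kb from genes were described here as candidate distal sites in primary mouse neurons. A peak is a stretch of the genome where sequenced fragments of the library pile up above a background. A peak was taken into this group when its summit lay outside every protein-coding gene, more than 1000 bp from each annotated gene end of any biotype, and between 10001 and 100000 bp away from the protein-coding gene end closest to it. The rule used position alone. It kept 1338 of the 7873 deposited peaks, which is 17.0% (95% Clopper-Pearson interval 16.2 to 17.8). The interval, like the others below, covers counting error only.

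The neurons were cultured from cortex and hippocampus of late embryonic mice of the strain C57BL/6, and CUT&Tag was run with an antibody against ATF4 in 1 library and with IgG in another. In CUT&Tag the antibody tethers a transposase to the protein in permeabilized cells, and the DNA next to the protein is cut, tagged and sequenced. Each antibody has 1 library, so replicate error is unknown for every value and no test between conditions was possible. The IgG library was not analysed here, and neither the sex of the animals nor any treatment of these neurons is given in the labels. The assay gives no marker of cell type, so the share of neurons in the culture could not be checked.

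ATF4 is a basic leucine zipper (bZIP) transcription factor whose protein accumulates when translation initiation is restrained by stress at the endoplasmic reticulum, by amino acid shortage or by oxidative stress. It pairs with other bZIP proteins, above all those of the C/EBP family, on composite sites that join an ATF and a C/EBP part. Its known targets include amino acid transporters, enzymes of amino acid and folate metabolism, tRNA synthetases and other stress regulators, mostly through sites near their starts. Distal sites of a transcription factor can lie in enhancers, which act on promoters over long distances, but the nearest gene of such a site need not be its target. The nearest gene is used below as a label of position, and no expression value bears on it.

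The sequence under the distal peaks is not analysed here, because the genome sequence was not used. The sequences that can be shown are promoters of genes that also own a distal peak, which let the distal peak be read against a gene-end peak with a recognisable motif at the same gene. Windows of 250 bases before to 50 bases after the start, from RefSeq on GRCm38.p6, were searched on both strands for 5 motifs of ATF and C/EBP type, spelled TGATGCAA, TGATGAAA, TGATGTAA, TGACGTCA and TGACGCAA. None of the 1338 peaks overlapped any of the 32851 windows, which the distance from gene ends in the position rule largely fixes in advance. For 4 genes nearest to a distal peak, the promoter window held both a motif and the summit of another peak. From each of these, the 120 bases before and 30 bases after the start are printed 5′ to 3′ along the gene, with motif bases in capitals.
Slc7a11 (minus strand of chr3:50443584-50443733): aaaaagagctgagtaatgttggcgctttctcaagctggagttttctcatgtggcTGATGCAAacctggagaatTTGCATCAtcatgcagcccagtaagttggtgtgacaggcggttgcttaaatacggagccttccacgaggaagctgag
Slc1a4 (minus strand of chr11:20332684-20332833): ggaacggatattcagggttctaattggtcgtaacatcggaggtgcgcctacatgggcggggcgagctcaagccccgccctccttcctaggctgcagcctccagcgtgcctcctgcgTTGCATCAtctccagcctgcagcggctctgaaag
Pnpla8 (plus strand of chr12:44269034-44269183): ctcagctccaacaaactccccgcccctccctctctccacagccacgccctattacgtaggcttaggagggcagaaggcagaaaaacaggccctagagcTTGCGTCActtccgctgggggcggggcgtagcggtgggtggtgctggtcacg
Lclat1 (plus strand of chr17:73107865-73108014): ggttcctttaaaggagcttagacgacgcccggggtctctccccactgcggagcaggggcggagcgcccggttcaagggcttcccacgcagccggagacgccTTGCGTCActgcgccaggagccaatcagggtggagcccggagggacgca

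Slc7a11 encodes the cystine/glutamate exchanger that supplies cysteine for glutathione, and its window held TGATGCAA in both orientations. The peak at its promoter had 9 fragments at the summit (exact Poisson 95% interval 4.12 to 17.1) and a fold enrichment of 7.07 over the peak caller's background. The distal peak of Slc7a11 lay upstream, 50.3 kb from the gene as the table bounds it and 106.0 kb from the start printed above, with 4 fragments and a fold of 4.6. Slc1a4 encodes a transporter of small neutral amino acids. Its promoter peak had 82 fragments (65.2 to 102) and a fold of 12.2. Its distal peak, 68.1 kb upstream, had 3 fragments and a fold of 3.54. At both transporters the promoter peak was the taller, but for Slc7a11 the intervals of 9 and of 4 fragments overlap.

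Pnpla8, which encodes a phospholipase of mitochondria and peroxisomes, had 21 fragments (13.0 to 32.1) at its promoter and 3 fragments at a site 16.2 kb upstream. Lclat1, an acyltransferase that remodels cardiolipin and other phospholipids, had 7 fragments at the promoter (2.81 to 14.4). Its distal peak, 28.8 kb past its far end and 164.0 kb from the start, also had 7 fragments. Both genes carry the motif TGACGCAA, read as TTGCGTCA on the strand printed. The summit of the promoter peak lay 32 bp from the motif at Slc1a4, 80 bp from the first motif printed at Slc7a11, 104 bp at Pnpla8 and 146 bp at Lclat1, where the motif was outside the called peak. The motifs were a minority among promoters in general. Any of the 5 was in 5.21% of all windows, in 5.49% of those of protein-coding genes, and in 62 of the 1199 windows of genes nearest to a distal peak (5.17%, 3.99 to 6.58). Among genes nearest to a distal peak of 6 or more fragments it was 11 of 233 (4.72%, 2.38 to 8.29), so the share did not stand above the background. Each motif alone was in 0.895% (TGATGCAA), 1.02% (TGATGAAA), 1.1% (TGATGTAA), 1.79% (TGACGTCA) and 0.49% (TGACGCAA) of windows, and a match is a description of letters, not of binding.

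Most distal peaks were low, as were most peaks of the list. The number of fragments at a summit was solved from the deposited fold enrichment and p-value with the formulas of MACS2. It is the whole number that fitted best, within 0.001 of the −log10 p for every peak. The distal peaks had a median of 4 fragments, with 624 of them (46.6%, 43.9 to 49.4) at 3, the smallest number in the group, compared with 41.0% of all peaks and 47.1% of those beyond 100 kb. With 3 fragments the Poisson limits are 0.619 and 8.77, so these sites are weak when read singly. Another 287 peaks had 4 fragments, 176 had 5, 186 had 6 to 9, 47 had 10 to 19, 10 had 20 to 49 and 8 had 50 or more (0.598%, compared with 0.8% of all peaks). Those 8 sites together held 1599 of the 7650 fragments summed over all distal summits, or 20.9%.

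The fold enrichment had a median of 4.17, an interquartile range of 3.62 to 5.19 and extremes of 3.29 and 43.8. The median −log10 q, the peak caller's adjusted score of each peak, was 2.43, and the smallest was 1.36. Widths ran from 165 to 1042 bp with a median of 203, compared with 207 over all peaks. In width the distal peaks were thus like the list as a whole.

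Peaks of 6 or more fragments made up 24.3% of all 7873 peaks. Of the distal peaks, 251 reached 6 fragments, which is 18.8% (16.7 to 21.0). The share was 44.9% (42.3 to 47.4) of the 1527 peaks within 1000 bp of a protein-coding gene end, far above the distal peaks and with no overlap of the intervals. It was 19.8% (16.7 to 23.2) of the 591 intergenic peaks 1 to 10 kb from genes, and 17.5% (15.5 to 19.8) of the 1237 more than 100 kb away. The intervals of these intergenic groups overlapped that of the distal peaks. A −log10 q of at least 5 was reached by 18.3% of all peaks and by 211 distal peaks (15.8%, 13.9 to 17.8), against 32.0% at gene ends, 14.0% at 1 to 10 kb and 16.4% beyond 100 kb. Peaks inside protein-coding genes, the largest class with 2840, had 19.3% and 13.8% by these measures. At these thresholds the distal peaks were thus about as high as peaks elsewhere away from gene ends, and gene-end peaks stood above them. At 100 or more fragments the counts were small, with 6 distal peaks (0.448%, 0.165 to 0.973) and 5 gene-end peaks (0.327%, 0.106 to 0.762). Inside protein-coding genes there were 5 (0.176%), at 1 to 10 kb 1 (0.169%) and beyond 100 kb 15 (1.21%, 0.68 to 1.99). The interval of the distal peaks overlapped that of each of these classes, so their place among them is not settled at this height. At 50 or more fragments the distal share was 0.598%, compared with 0.8% of all peaks.

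**Figure D1:**
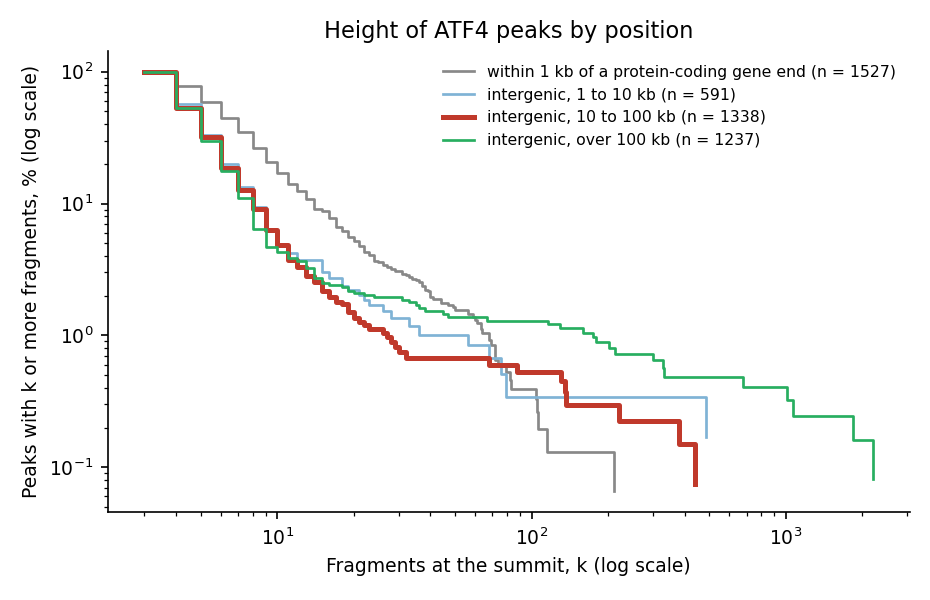
Share of peaks in percent (log scale) that have k or more fragments at the summit, against k (log scale), for 4 positions relative to protein-coding genes. At 6 fragments the curve of the intergenic peaks 10 to 100 kb away stands at 18.8% and that of gene-end peaks at 44.9%.

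The distal peaks lay a median of 35.4 kb from the nearest protein-coding gene end (interquartile range 19.6 to 60.4 kb). Sequence meeting the position rule covered 588 Mb, or 21.8% of the 2703.4 Mb spanned by genes and peaks, and held 2.27 peaks per Mb (exact Poisson 95% interval 2.15 to 2.4). The density was 19.3 per Mb at gene ends, 2.85 (2.63 to 3.09) at 1 to 10 kb and 1.59 (1.5 to 1.68) beyond 100 kb, so the distal peaks took a middle place between the nearer and the farther intergenic peaks. For peaks of 6 or more fragments it was 0.427 per Mb (0.375 to 0.483), against 8.65 at gene ends, 0.565 (0.467 to 0.677) at 1 to 10 kb and 0.279 (0.243 to 0.319) beyond 100 kb. The length includes assembly gaps and sequence that reads cannot be placed on, and their part in these densities was not tested. On the autosomes alone the order was kept, with 20.0 at gene ends, 3.02 (2.78 to 3.28) at 1 to 10 kb, 2.56 (2.42 to 2.7) for the distal peaks and 1.75 (1.65 to 1.86) beyond 100 kb.

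Within the 10 to 100 kb range the density changed little with distance. It was 2.51 per Mb (2.25 to 2.79; 350 peaks) at 10 to 20 kb, 2.19 at 20 to 30 kb, 2.31 at 30 to 50 kb, 2.13 at 50 to 70 kb and 2.14 (1.88 to 2.43; 242 peaks) at 70 to 100 kb. The intervals of the nearest and the farthest of these bins overlapped. The share of peaks with 6 or more fragments was 18% in the nearest bin and 17.4% in the farthest.

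**Figure D2:**
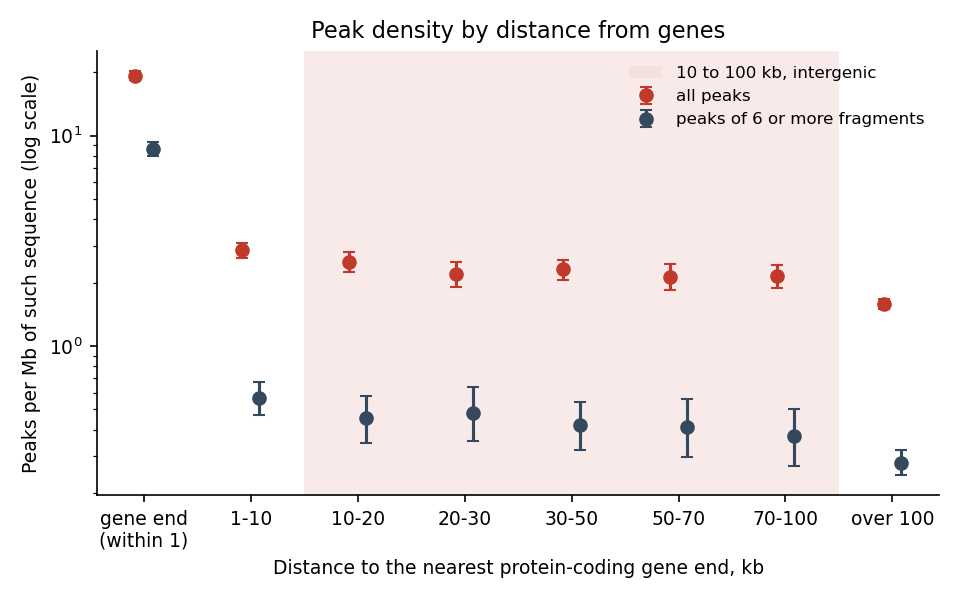
Peaks per Mb of sequence (log scale) by distance in kb to the nearest protein-coding gene end, for all peaks and for peaks of 6 or more fragments, with exact Poisson 95% intervals as bars. Density falls from 19.3 per Mb at gene ends to 2.85 at 1 to 10 kb and stays between 2.13 and 2.51 across the shaded 10 to 100 kb range.

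The peaks next to the limits of the rule show what a shift of the limit would exchange. Just inside the near limit lay peaks of Nedd4l, a ubiquitin ligase gene, at 10027 bp and of Prss38, a serine protease gene, at 10060 bp, each with 3 fragments. Just outside it lay peaks of Fhl2 at 9924 bp with 6 fragments and of Vwc2l at 9942 bp with 3. At the far limit, the peaks of 1700012A03Rik at 99928 bp (3 fragments) and LOC108167340 at 99959 bp (4 fragments) were kept, and those of Gpr26 at 100201 bp (6 fragments) and Twistnb at 100256 bp (3 fragments) were not. All of these peaks were low, on both sides of either limit.

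For 1049 distal peaks the strand of the nearest gene was known, and 556 of them (53.0%, 49.9 to 56.1) lay upstream of it and 493 (47.0%) downstream. Upstream sequence made up 53.8% of the length available to these peaks, and the densities were 2.25 per Mb upstream and 2.32 downstream. Sites of 6 or more fragments were 19.8% upstream and 18.7% downstream. The split of distal peaks between the sides was thus within counting error of the split of the sequence. The other 289 peaks had no strand for their gene, among them all 42 on chromosome 18.

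Some distal peaks lay in genes not annotated as protein-coding, mostly non-coding genes and pseudogenes. 243 of them (18.2%, 16.1 to 20.3) had the summit inside such a gene, and these genes together covered 13.8% of the length. The share was 11.3% of all peaks, 10.8% of intergenic peaks at 1 to 10 kb and 13.1% of those beyond 100 kb. The density of distal peaks was 3.0 per Mb (2.64 to 3.4) inside such genes and 2.16 (2.03 to 2.29) outside them. The length includes assembly gaps and 36.0 Mb of chromosome Y with 2 peaks. How these divide between inside and outside, and their part in the difference, was not tested. The share with 6 or more fragments was 20.2% inside and 18.4% outside. Of the 243 peaks, 226 were in long non-coding RNA (lncRNA) genes, 10 in pseudogenes and 3 in transcribed pseudogenes. Another 2 were in Igh, the immunoglobulin heavy chain locus, whose biotype is given as other. Gm34687 held 3 of them, and Ftx, a lncRNA gene of the X-inactivation center, held 2, the taller with 18 fragments. No distal peak overlapped any of 1005 miRNA hairpins, which the rule fixes in advance where a hairpin is itself an annotated gene.

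Few distal peaks had a close neighbour. Another peak lay within 10 kb of 55 of them (4.11%, 3.11 to 5.32). The rule keeps distal peaks more than 10 kb from coding gene ends, so most peaks at and inside genes could not be such neighbours, and the share cannot be set against that of classes nearer to genes or of all peaks (8.46%). Beyond 100 kb, where genic neighbours are barred as well, it was 6.55% (5.23 to 8.07), and the intervals overlapped at their limits. The 55 fell into 34 groups of at most 3 peaks, and 21 of these groups held distal peaks alone. The median distance to the next peak was 100549.5 bp. By nearest gene, 1094 genes had 1 distal peak, 105 had 2, 10 had 3 and 1 had 4, so that 244 peaks (18.2%) shared their nearest gene with another.

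The tallest sites stood far above the rest. The tallest, at chr17:13305955-13306252, had 439 fragments at the summit (399 to 482) and a fold enrichment of 34.6. It lay inside the lncRNA gene Gm36684, 48.5 kb upstream of Tcp10c, a gene of the t-complex region. The next, at chr9:35305222-35305589 inside the lncRNA gene Gm33838, had 381 fragments (344 to 421) and a fold of 38.3, 29.5 kb downstream of Rpusd4, which encodes a pseudouridine synthase of mitochondrial RNA. They were 298 and 368 bp wide, compared with the median of 203 bp of all distal peaks.

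The largest fold, 43.8, belonged to the site at chr16:98107497-98107699, 90.8 kb downstream of B230307C23Rik, with 220 fragments (192 to 251). Its summit held 94.0% of the fragments counted in the 10 kb window around it, if the local background was counted in the ATF4 library itself. That reading was not tested, since the use of IgG is not stated. The local count was smaller than the summit count at 0 of the 251 distal peaks of 6 or more fragments. At lower peaks a local count below the genome-wide background does not show. A site at chr10:130594773-130594989, 97.5 kb upstream of the vomeronasal receptor gene Vmn2r87, had 137 fragments (115 to 162), and a neighbour 460 bp away had 32. Near Gm14496, a site at chr2:182012737-182013097 had 135 fragments (113 to 160). The zinc finger gene Zfp825 was the nearest gene of 2 of these sites, chr13:74528654-74529695 with 131 fragments (110 to 155) and chr13:74530442-74530621 with 88 (70.6 to 108), both inside the pseudogene Gm20590. The last of the 8, at chr17:3029801-3030027, had 68 fragments (52.8 to 86.2) and lay 85.0 kb upstream of Scaf8, which encodes a regulator of transcription termination. No gene of amino acid or stress metabolism from the lists below was nearest to any of the 8.

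These 8 sites had widths with a median of 262.5 bp (180 to 1042), and the widest of them, near Zfp825, was the widest of all distal peaks. Their summits held a median of 46.8% (14.0 to 94.0) of the fragments in that window, a count from which the local background was taken. Among all distal peaks of 6 or more fragments that share had a median of 54.5%, compared with 42.1% at gene ends and 63.6% beyond 100 kb, and the median width was 225 bp compared with 344 bp at gene ends. Repeats, copy number and sequence blacklists, which could raise such piles, were not examined here, and their part in these sites was not tested.

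**Figure D3:**
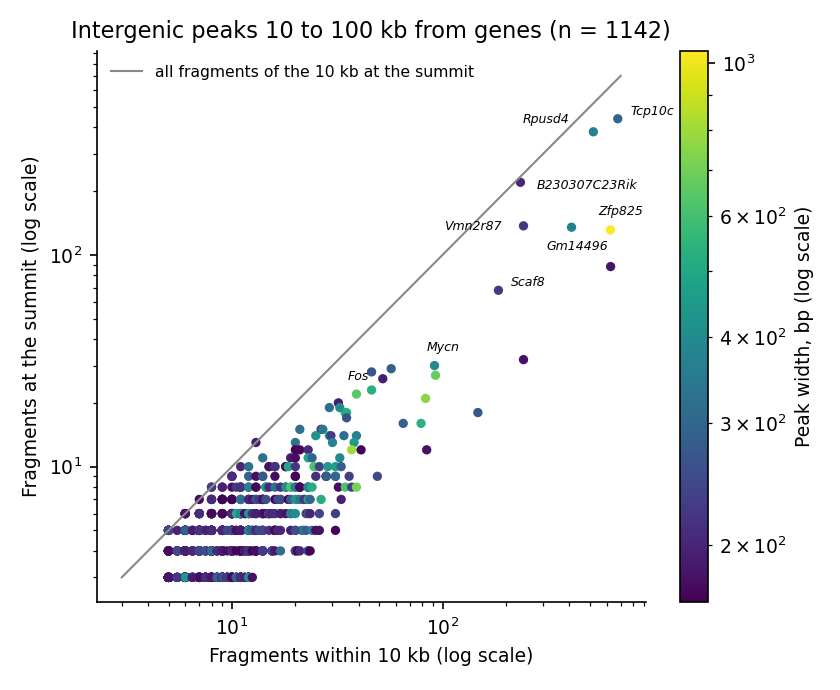
Fragments at the summit against fragments in the 10 kb window around it, as read from the local background (both log scales), with peak width in bp as color, for the 1142 intergenic peaks 10 to 100 kb from genes that have a local count. The line marks sites whose window holds no fragment outside the summit. All points lie on or below it, as they must where a window holds its own summit. The sites of 50 or more fragments stand apart at the upper right.

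Below these came sites of 20 to 49 fragments, of which there were 10, with a median width of 337.5 bp. Fos, an immediate-early gene of neuronal activity and itself a bZIP factor, had a site at chr12:85455095-85455740, 18.5 kb upstream and inside the lncRNA gene Gm38543, with 22 fragments (13.8 to 33.3), a fold of 13.7 and q = 2.32e-22. Creb3l1, a bZIP factor held in the endoplasmic reticulum membrane until cleaved under stress, had a site at chr2:92055514-92056193 with 27 fragments and a fold of 10.8, 31.4 kb from the gene. Mycn, a growth regulator of neural progenitors, had a site at chr12:12877454-12877840, 58.5 kb downstream, with 30 fragments (20.2 to 42.8), a fold of 12.0 and q = 4.26e-24. These sites were wide for the group, at 646, 680 and 387 bp. Kcnh5, a voltage-gated potassium channel gene, had 28 fragments 92.8 kb from its far end, which is 373 kb from its start, and the adhesion receptor gene Adgrl2 had 29 at 63.7 kb. Asmt, of melatonin synthesis, had 26 on chromosome X, Mcur1, a regulator of mitochondrial calcium uptake, had 23 at 12.7 kb, and Bean1 had 20 at 12.7 kb. Together with the 8 sites above these, apart from Creb3l1, are the 15 distal peaks with the smallest p-values.

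On the remaining chromosomes, the distal peak with the smallest p-value had fewer fragments. It was near Axin2, a Wnt pathway inhibitor, with 19 on chromosome 11, Rfx8 with 18 on chromosome 1, and Dsc1, a desmosomal cadherin gene, with 15 on chromosome 18. Csf2ra on chromosome 19 had 15, Ly6f on chromosome 15 had 14, and Tapt1 on chromosome 5 had 13. Rngtt, the mRNA capping enzyme gene on chromosome 4, had 13, which on the same reading were all the fragments in the 10 kb window around its summit. Bhlhe40, a transcriptional repressor of the clock system, had 12 on chromosome 6, Gm45988 had 12 on chromosome 7 and Lacc1 had 7 on chromosome 14. On chromosomes 7 and 14 a distal peak with a larger p-value had more fragments over a higher background, namely 18 near Ccdc9 and 9 near Zmiz1. Distal peaks of 6 or more fragments were found on 20 chromosomes, that is, on all but chromosome Y.

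Density differed between chromosomes. On the autosomes it ran from 1.82 per Mb on chromosome 16 (1.26 to 2.54) to 3.26 on chromosome 11 (2.54 to 4.11), and these intervals met at their limits. Chromosome X had 1.03 per Mb (0.768 to 1.35; 52 peaks) and chromosome Y had 0.0556 (0.00673 to 0.201; 2 peaks). The interval of X lay below that of each autosome except chromosome 16.

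**Figure D4:**
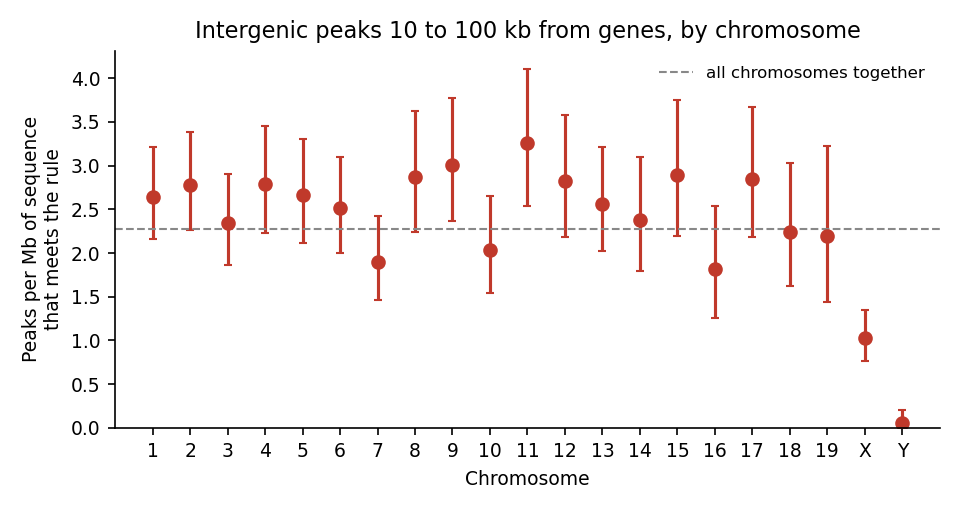
Intergenic peaks 10 to 100 kb from genes, per Mb of sequence that meets the position rule, by chromosome, with exact Poisson 95% intervals as bars and the value of all chromosomes, 2.27, as a dashed line. Chromosomes X (1.03) and Y (0.0556) lie below the line with their whole intervals.

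Bmp4, a morphogen gene, was nearest to the most distal peaks, with 4. They formed a pair downstream with 5 and 3 fragments, 573 bp apart, and a pair upstream with 7 and 4 fragments, 2039 bp apart. Mycn had 3 downstream peaks with 30, 5 and 7 fragments, at 58.5, 51.0 and 31.5 kb. Dok5, an adaptor of receptor tyrosine kinases, had 10, 3 and 4 fragments. Bod1, a gene of chromosome biorientation, had 5, 3 and 4. Actl7b, an actin-like gene, had 9, 6 and 3, all within Gm34687. Gm14461 had 13, 4 and 4, Gm30733 had 3, 4 and 9, and Cypt12 had 4, 3 and 3. Across these 8 genes, the only peaks of 10 or more fragments were 1 each of Mycn, Gm14461 and Dok5.

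The 1338 peaks had 1210 different nearest genes, which is 5.53% of the 21887 protein-coding genes. Genes of 8 hand-written lists, which share a few genes such as Fos and Slc7a11, were counted against that background, and, since genes differ in how much intergenic sequence surrounds them, peaks per Mb of such sequence were set against 2.27. Amino acid transporters had 5 of 15 genes (33.3%, 11.8 to 61.6) and 6.90 peaks per Mb (2.24 to 16.1). They were Slc38a1, a glutamine transporter, with 7 fragments and a fold of 6.63 at chr15:96547728-96548105, 23.5 kb from the gene, Slc7a1, the cationic amino acid transporter, with 6 fragments 19.4 kb upstream, and Slc7a11, Slc1a3 and Slc1a4 with 3 or 4. Slc1a3 is the glial glutamate transporter. The lower limit of the density lay just under the background, and no list had an interval wholly above it.

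The bZIP factors had 6 of 39 genes (15.4%, 5.86 to 30.5) and 5.21 peaks per Mb (2.1 to 10.7). Besides Fos, which had a further peak of 5 fragments downstream, and Creb3l1, they were Cebpa, a C/EBP factor, with 6 fragments at chr7:35102513-35102685, 16.7 kb upstream, and Bach2, Crem and Jun with 3 or 4. Of the 18 neuronal activity genes, 2 had a distal peak (11.1%, 1.38 to 34.7), at 3.37 per Mb (0.695 to 9.85). They were Fos and Nr4a3, an orphan nuclear receptor gene, the latter with 3 fragments. Among these regulators the fragments were gathered at Fos and Creb3l1.

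The 28 genes of the ATF4 stress response had 3 with a distal peak (10.7%, 2.27 to 28.2), at 3.88 per Mb (1.06 to 9.94). They were Slc7a11, the stanniocalcin gene Stc2 and the angiogenic factor gene Vegfa, and none of their peaks had more than 4 fragments. The 25 enzymes of amino acid and folate metabolism had 1, Bcat1, of branched-chain amino acid breakdown, with 5 fragments and 1.38 peaks per Mb (0.0349 to 7.68). The 20 cytosolic tRNA synthetase genes had 0, but only 0.191 Mb of sequence met the rule near them, which allows a density of up to 19.3 per Mb. The intervals of these 3 lists included the background density of 2.27, and none of their peaks reached 6 fragments.

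Neuronal and glial fate factors had 8 of 33 genes (24.2%, 11.1 to 42.3), but also much sequence around them, and 3.14 peaks per Mb (1.51 to 5.78). Prox1, a factor of dentate granule cells, had 2 peaks with 10 and 4 fragments, Olig1, an oligodendrocyte factor, had 9 fragments at 33.8 kb, and Dlx2, Mef2c, Sox2, Sox4, Sox9 and Tcf4 had none with 6 or more. Synaptic adhesion and receptor genes had 5 of 37 (13.5%, 4.54 to 28.8) and 1.61 per Mb (0.646 to 3.31). Grm7, a metabotropic glutamate receptor gene, had 6 fragments 21.4 kb upstream, and Gria1, Grin2b, Cdh8 and Lrrtm4 had fewer than 6. Over the 201 genes of all lists, 28 (13.9%) had a distal peak, at 2.87 per Mb (1.99 to 4.01), and the sequence that met the rule was 59.0 kb per gene, compared with 26.9 kb over all genes. A distal peak of 6 or more fragments was nearest to 8 of the 201 (3.98%, 1.73 to 7.69), compared with 1.11% of all protein-coding genes, and a distal peak with a −log10 q of at least 5 was nearest to 7 (3.48%, 1.41 to 7.04), compared with 0.946%. These shares do not allow for the larger room around list genes.

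**Figure D5:**
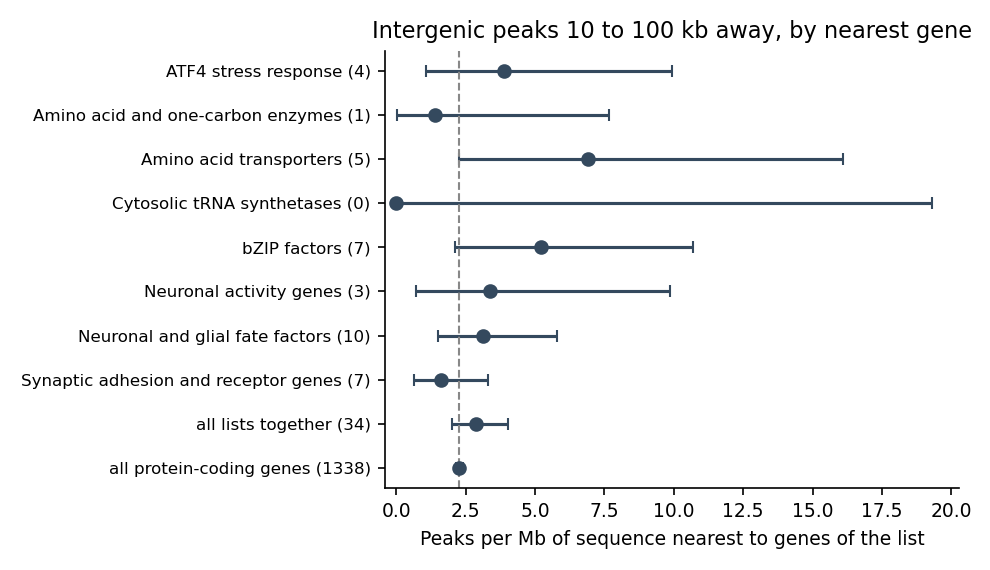
Intergenic peaks 10 to 100 kb away per Mb of sequence nearest to the genes of each list (number of peaks in brackets), with exact Poisson 95% intervals as bars and the value of all protein-coding genes, 2.27, as a dashed line. Transporters (6.90) and bZIP factors (5.21) lie highest, and the interval of every list reaches or crosses the line.

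Distal peaks were also compared with the gene-end peaks of their nearest genes. A peak within 1000 bp of an end was present at 8.13% of the 21887 genes and at 103 of the 1210 genes nearest to a distal peak (8.51%, 7.0 to 10.2). Of the 242 genes nearest to a distal peak of 6 or more fragments, 24 had one (9.92%). It was 6.16% (5.73 to 6.61) of the 11651 genes that had sequence meeting the rule but no distal peak. The share near distal peaks was thus close to that of all genes and above that of genes with such sequence and no distal peak, whose interval it did not overlap. The groups were not matched for how much such sequence each gene has. Only 12861 of the 21887 genes have any, so the share of all genes is a mixed background.

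For 115 distal peaks the nearest gene had a gene-end peak. The distal peak had fewer fragments than the tallest gene-end peak in 63 cases, the same number in 24 and more in 28, with medians of 4 and 5. Slc7a1 was the most uneven pair on the gene-end side among distal peaks of 6 or more fragments, with 6 fragments at the distal site and 49 at the gene end. Fos had 22 at the distal site and 7 at the gene end, and Mcur1 had 23 and 3. Ccdc9, with 18 and 20, Zswim6, with 14 and 13, Bhlhe40, with 12 and 12, and Hdac2, a histone deacetylase gene, with 9 and 9, had nearly equal heights. Distal peaks of 6 or more fragments thus occurred with a lower, an equal or a higher gene-end peak. The site of Mcur1, with 23 fragments, was the tallest distal peak whose nearest gene had a gene-end peak. None of the 8 sites of 50 or more fragments had one at its nearest gene.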

How the data were processed

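ATF4 CUT&Tag of C57BL/6 primary neurons was analysed from 1 library. The other library, with IgG, was not used here. The authors deposited 1 list of peaks, not pooled, on the build mm10. The submitters' processing notes name FastQC, BWA, MACS2 2.1.2 and deepTools, without their settings, and whether IgG served in peak calling is not stated in the sources used here. The deposited values are a fold enrichment at the summit (a ratio), its −log10 p and −log10 q, and a display score, which is the whole-number part of the −log10 q times 10. Since the fold is not stated to be over IgG, folds and q-values rank peaks within this list. The total number of fragments is unknown here.

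Fragments at the summit were solved from fold = (fragments + 1)/(background + 1) and a Poisson p-value, within 0.001 of the −log10 p in all 7873 peaks. If peaks were called on single reads, they are reads. On 2000 simulated peaks made with the same formulas 100% were recovered, which checks the arithmetic alone. The simulated peaks were lower than the tallest sites named here. The local background was read as ATF4 fragments within a 10 kb window, which holds if IgG was not the control, with a genome-wide value of 4.95 that 196 of the distal peaks had in place of a local count, and an implied fragment length of 173 bp.

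Distances were taken to gene ends of the RefSeq table of GRCm38.p6, the assembly of mm10, with 49943 genes on 21 chromosomes, 21887 of them protein-coding. It has no strand, so strand and starts came from RefSeq promoters, for 17492 coding genes. Density is peaks over the length meeting the rule. With 1 library no test was made, and Clopper-Pearson and exact Poisson intervals (95%) reflect counting error alone, as reads copied by PCR are not separate molecules. Named sites are the 15 distal peaks with the smallest p-values, the distal peak with the smallest p-value on each chromosome where it has 6 or more fragments, the 2 on each side of each limit, the 8 genes with most distal peaks (ties by p-value) and list genes with 6 or more fragments; other list genes, Ftx, Zmiz1, the promoters and the pairs of distal and gene-end peaks were picked out once values were known. The distal peaks and the lists were chosen with earlier results of these data known. Alternatives changed the position of a peak, the gene ends, the distance, the height and the gene assignment. Computations ran in Python 3.11.15 with scipy 1.17.1, numpy 2.4.6 and pandas 2.3.3, and plots in matplotlib 3.10.9.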

Additional observations from a re-analysis of the deposited data

How the results depend on the processing

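The number of distal peaks was 1338, and it stayed between 1095 and 1454 with the middle of the peak, the whole peak, coding ends only or sites outside every annotated gene, but was 884 with a largest distance of 50 kb. The share with 6 or more fragments stayed between 18.4% and 19%, and that with a −log10 q of at least 5 between 15.4% and 15.8%. The share inside genes not annotated as protein-coding was 19.5% among peaks of 6 or more fragments. Restricting the list to a −log10 q of at least 5 raised the median fold to 6.87 and the median fragments to 8, as it removes low peaks. The share with a neighbouring peak was 1.79% within 5 kb and 10.3% within 20 kb. The density was 0.427 per Mb at 6 or more fragments, 0.359 at a −log10 q of at least 5, and 2.56 on the autosomes, a setting chosen after seeing the data. Of the list genes, 8 had a distal peak of 6 or more fragments (1.11% of all genes did) and 7 one with a −log10 q of at least 5 (0.946% of all genes). With any coding end within 100 kb in place of the nearest gene, 43 list genes were reached (21.4%, against 12.1% of all genes). The motif at distal summits was planned and not run, as it needs the genome sequence. No paired analysis was possible because each antibody has 1 library. At 3 fragments, where 46.6% of the distal peaks lie, the counting interval is 0.619 to 8.77 fragments.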
